A study of Mus musculus with 3 samples.

Results

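Amino acid breakdown and the urea cycle in mouse liver are described here through 40 genes, taken by gene symbol from the 35275 genes of 1 FPKM table (fragment counts scaled to gene length and library depth). All 40 were found, and all 40 stood at 1 FPKM or more in at least 1 library. They fall into 9 pathways: phenylalanine and tyrosine, tryptophan, serine and glycine, histidine, glutamine with ornithine and proline, lysine with branched-chain amino acids, methionine with sulfur amino acids, transaminases, and the urea cycle. The study sequenced polyA RNA of liver, with a single library for each of 3 groups. Its male mice, labelled C57BL/6 in one field and C57BL/6J in another, started their diets at 10 weeks of age. Control animals ate normal chow and had no treatment. For NASH (nonalcoholic steatohepatitis) untreated animals ate western diet plus liquid fructose, with 24 weeks in the label. For TH-treated NASH the mice ate that diet for 16 weeks. They then also took the thyroid hormones T3 at 35 ng/g and T4 at 7 ng/g for 8 weeks, dissolved in their drinking water with 15% fructose. The labels give no age at collection, feeding state or hour of collection, nor whether animals were pooled.

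The liver is the main site where surplus amino acids lose their nitrogen and feed their carbon into glucose, ketone bodies or the citric acid cycle. Transaminases and deaminases move the nitrogen to glutamate, aspartate and ammonia, and the urea cycle turns ammonia into urea for excretion. Each amino acid has its own chain of enzymes, whose opening step often sets the flow, such as Tat for tyrosine, Tdo2 for tryptophan and Hal for histidine. Glucagon and glucocorticoids raise many of these genes in fasting and on protein-rich food. Periportal hepatocytes hold most urea cycle enzymes, Hal, Sds and Gls2, whereas Oat and glutamine synthetase, Glul, lie around the central vein.

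Each group has 1 library, so differences could not be set against replicates and no test between groups was made. A fold below is a ratio of FPKM values. The range in brackets is its exact 95% counting interval (conditional binomial, Clopper-Pearson), which covers counting error only. A gene counts as higher or lower here where log2(FPKM + 1) differs by 1.5-fold or more. The libraries held 38303410 to 54576236 fragments on genes, and each member rested on at least 410 fragments per library. Dio1, a thyroid hormone target used to check the hormone label, stood at 90.3 FPKM (control), 129 FPKM (NASH) and 429.7 FPKM (TH-treated NASH). The median log2 ratio of all genes was 0.12 for NASH against control, −0.03 for TH-treated NASH against NASH and 0.12 for TH-treated NASH against control. With TMM scaling these medians were −0.03, −0.04 and −0.05, so small ratios below are to be read against them.

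The tissue label was checked against markers. Of 9 hepatocyte markers found, all stood far above 1 FPKM in every library, with Alb, albumin, at 32685 FPKM (control), 20265 FPKM (NASH) and 14907 FPKM (TH-treated NASH). Their summed level was 61931 FPKM (control), 42536 FPKM (NASH) and 40883 FPKM (TH-treated NASH). Alb alone made up 52.8%, 47.6% and 36.5% of these sums, so it weighs heavily on them. In TH-treated NASH against NASH, Alb was 1.36-fold lower while the sum was 1.04-fold lower. Of the 9 markers, 2 were higher and 3 lower in TH-treated NASH than in NASH, with a median log2 ratio of 0.30. Among macrophage and leukocyte markers, 7 of 8 were higher in NASH than in control, and the whole list summed to 95.2, 283 and 334 FPKM in control, NASH and TH-treated NASH. Stellate cell and fibroblast markers summed to 71.2, 145 and 98.1 FPKM in the same order. The kidney also carries many of these enzymes, but its markers Umod and Slc12a1 had no fragment in any library, where 3 counts would have placed a gene 2 kb long at 0.0275 to 0.0392 FPKM. Of 9 kidney and pancreas markers 8 stayed below 1 FPKM, and the other, the pancreatic elastase Cela1, stood at 17.5, 10.8 and 56.9 FPKM in the 3 libraries. Of 5 adipocyte markers 4 stayed below 1 FPKM, and the other, Cfd, stood at 2.64, 44.2 and 0.0849 FPKM. In bulk tissue, fewer hepatocytes and less RNA per hepatocyte cannot be told apart.

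The 40 members were abundant transcripts. Their median level was 153 FPKM (control), 128 FPKM (NASH) and 148 FPKM (TH-treated NASH), and together they took 2.72%, 2.31% and 2.59% of all fragments. Ass1, the argininosuccinate synthase of the urea cycle, was the highest member in each library at 1714, 1256 and 1361 FPKM. Afmid, the formamidase of the kynurenine pathway, was the lowest in each at 8.51, 6.30 and 4.60 FPKM. In every library 33 of the 40 stood at 50 FPKM or more.

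**Figure D1:**
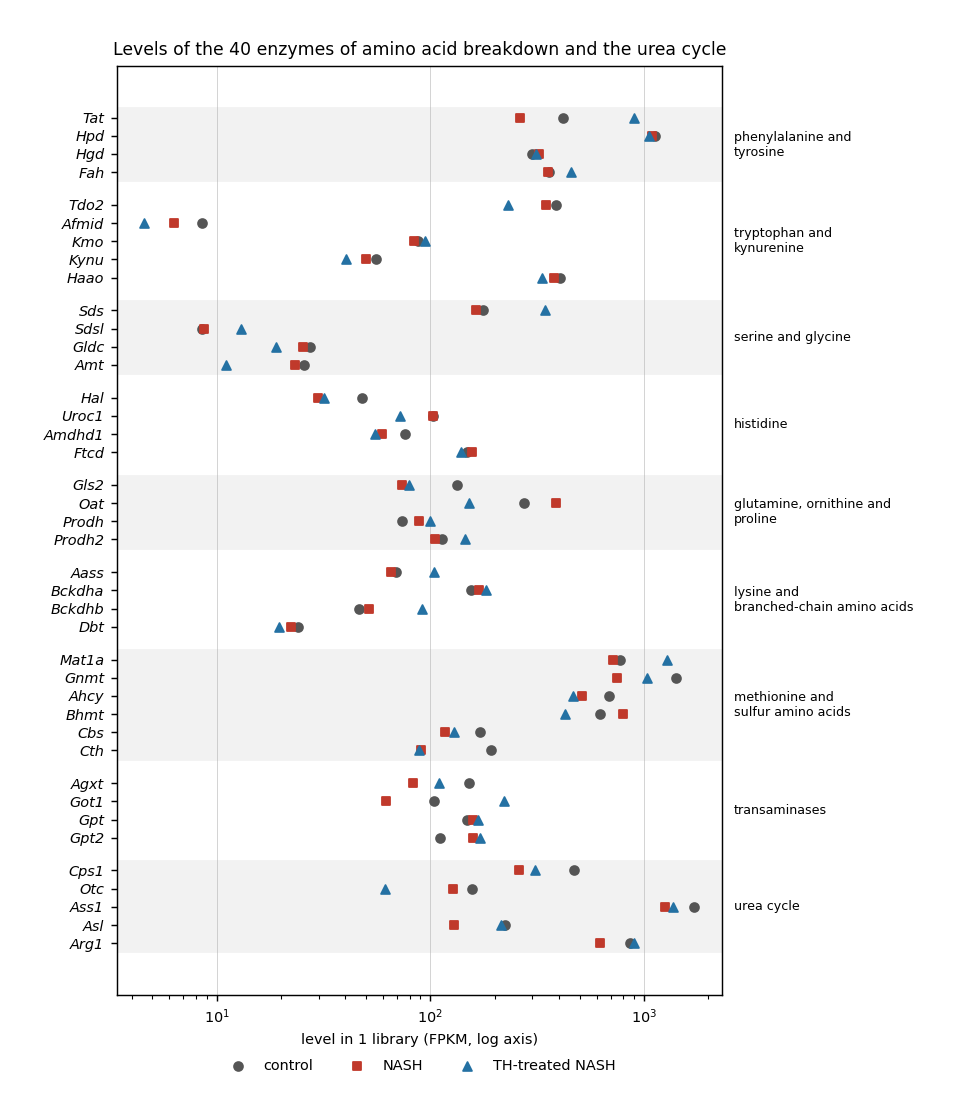
Level of each of the 40 members in the 3 libraries, in FPKM on a log axis, with 1 symbol per library and members grouped by pathway. Levels ran from 4.60 FPKM for Afmid to 1714 FPKM for Ass1, and Tat, Got1, Oat, Otc and Cth had some of the widest gaps between symbols.

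Promoter windows are shown for 4 members with large ratios in TH-treated NASH against NASH, so that the letters upstream can be read beside their levels. Got1 and Bckdhb lie on the higher side and Oat and Otc on the lower. The 4 were chosen after the ratios were seen and do not stand for the other members of either side. RefSeq windows on build GRCm38.p6 were found for 29 of the 40 members, and where a gene had more than 1, as Bckdhb did, the first listed was used. Each run holds the 250 bases before the start, read 5′ to 3′ on the gene's strand. Got1 lies at chr19:43524606-43524855 on the minus strand, Bckdhb at chr9:83924887-83925136 on the plus strand, Oat at chr7:132576399-132576648 on the minus strand and Otc at chrX:10252055-10252304 on the plus strand. Capitals mark a match to any of 8 motifs searched on both strands.
Got1: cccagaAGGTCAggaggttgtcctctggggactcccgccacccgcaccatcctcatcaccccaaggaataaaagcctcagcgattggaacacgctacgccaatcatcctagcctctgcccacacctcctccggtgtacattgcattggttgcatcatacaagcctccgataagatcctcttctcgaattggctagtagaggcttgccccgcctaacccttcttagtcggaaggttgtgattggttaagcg
Bckdhb: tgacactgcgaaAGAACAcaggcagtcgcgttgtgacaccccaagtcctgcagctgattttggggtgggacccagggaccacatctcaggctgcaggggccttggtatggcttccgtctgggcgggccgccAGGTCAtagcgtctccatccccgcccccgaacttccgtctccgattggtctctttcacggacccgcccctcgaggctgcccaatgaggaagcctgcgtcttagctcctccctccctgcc
Oat: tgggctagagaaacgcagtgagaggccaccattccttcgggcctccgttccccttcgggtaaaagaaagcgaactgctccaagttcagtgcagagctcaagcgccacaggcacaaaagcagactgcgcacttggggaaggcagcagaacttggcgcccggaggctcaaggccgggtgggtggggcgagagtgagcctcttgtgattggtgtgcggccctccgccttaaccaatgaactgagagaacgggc
Otc: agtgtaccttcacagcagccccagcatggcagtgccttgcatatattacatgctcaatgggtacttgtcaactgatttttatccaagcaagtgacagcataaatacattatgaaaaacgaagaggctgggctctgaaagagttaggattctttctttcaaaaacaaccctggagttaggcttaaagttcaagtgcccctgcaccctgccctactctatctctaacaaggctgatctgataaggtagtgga

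The 8 motifs were TGACGTCA and TGACGCAA (cAMP response element and a variant), TTGCNNAA and TTGCGCAA (C/EBP, the latter contained in the former), TGTTCT (glucocorticoid receptor core), AGGTCA (nuclear receptor core), and the direct repeats of that core with a spacer of 4 or 1, which contain it. AGGTCA, which was added to the search after the other motifs, was found in 12 of 29 member windows (41.4%) and in 14.02% of all 32851 windows. No share was taken over windows of genes as abundant in liver as the members, so this gap may not be particular to them. The 12 are Got1, Bckdhb, Aass, Amt, Bhmt, Tdo2 and Gnmt, which passed 1.5-fold in some comparison, and Ahcy, Uroc1, Prodh2, Hgd and Haao, which passed in none as deposited. They include members of both directions in TH-treated NASH against NASH, with Got1, Bckdhb and Aass higher and Amt and Bhmt lower. TTGCNNAA was in 4 of 29 (13.8%) beside 9.56% of all windows, and TGTTCT in 3 of 29 (10.3%) beside 16.1%. The other 5 motifs matched none of the 29 windows, beside at most 1.55% of all windows. A match in these letters is a description of the window and not a binding site.

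As the deposited table gives them, members with large ratios lie as follows, and the sources used here do not name the genome build of these positions. The table places Cps1 (ENSMUSG00000025991) on chromosome 1 from 67123026 to 67231259 and Otc (ENSMUSG00000031173) on chromosome X from 10252305 to 10321024. It places Got1 (ENSMUSG00000025190) on chromosome 19 from 43499752 to 43524605, Tat (ENSMUSG00000001670) on chromosome 8 from 109990437 to 109999803 and Cth (ENSMUSG00000028179) on chromosome 3 from 157894248 to 157925077. It places Oat (ENSMUSG00000030934) on chromosome 7 from 132557475 to 132576398, Bckdhb (ENSMUSG00000032263) on chromosome 9 from 83925145 to 84124240 and Amt (ENSMUSG00000032607) on chromosome 9 from 108296853 to 108301571. By these positions 7 members overlap another gene of 1 FPKM or more, namely Afmid, Kmo, Sds, Gls2, Oat, Prodh and Bhmt.

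In NASH, 9 of the 40 members were at least 1.5-fold lower than in control and none was higher. The 9 were Cps1 and Asl of the urea cycle, the transaminases Agxt and Got1, Cth and Gnmt of methionine and sulfur metabolism, and Gls2, Hal and Tat, which open the breakdown of glutamine, histidine and tyrosine. That is 22.5% of the members, where 2.57% of all 11499 genes of at least 1 FPKM were that much lower and 10.5% that much higher. Because the members are abundant, genes of at least 50 FPKM are a closer background. Of these 1347 genes, 6.98% were lower and 7.42% higher, beside 8 of 34 members lower. The members were chosen with earlier results of these data known, and whether that bears on these shares was not tested. The members' median log2 ratio was −0.11, from −1.08 for Cth to 0.52 for Gpt2. With median-of-ratios or TMM scaling 13 members were lower, and with centring by gene length 12, with none higher in each case. Over all genes, those lower also rose in number, from 296 as deposited to 533, 476 and 430 in the same order. Those higher fell from 1208 to 789, 850 and 840. No share of genes of at least 50 FPKM was taken under these scalings. Hepatocyte markers had 2 of 9 lower, Alb and Fgb, with a median of −0.52, and under the 4 scalings 2 to 6 were lower with a median from −0.74 to −0.50. Whether these shifts in cell markers bear on the members was not tested.

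In TH-treated NASH, 7 members were at least 1.5-fold higher than in NASH and 4 were lower. Higher were Got1, Tat, Sds, Mat1a, Bckdhb, Asl and Aass, and lower were Oat, Otc, Amt and Bhmt. Of all 11734 genes, 8.49% were that much higher and 9.03% lower, and of 1451 genes of at least 50 FPKM 19.5% were higher and 13.9% lower. The members' shares were 17.5% and 10% over all 40, and 7 and 3 of 33 at 50 FPKM or more, so their counts lay near those of other abundant genes. The median log2 ratio was 0.11, from −1.34 for Oat to 1.81 for Got1, and it was −0.00 when libraries were scaled to equal FPKM totals. With that scaling 6 members were higher and 6 lower: Aass lay below 1.5-fold with a log2 ratio of 0.56, and Tdo2 and Uroc1 passed it on the lower side. Over all genes 762 were then higher and 1418 lower, beside 996 and 1060 as deposited.

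**Figure D2:**
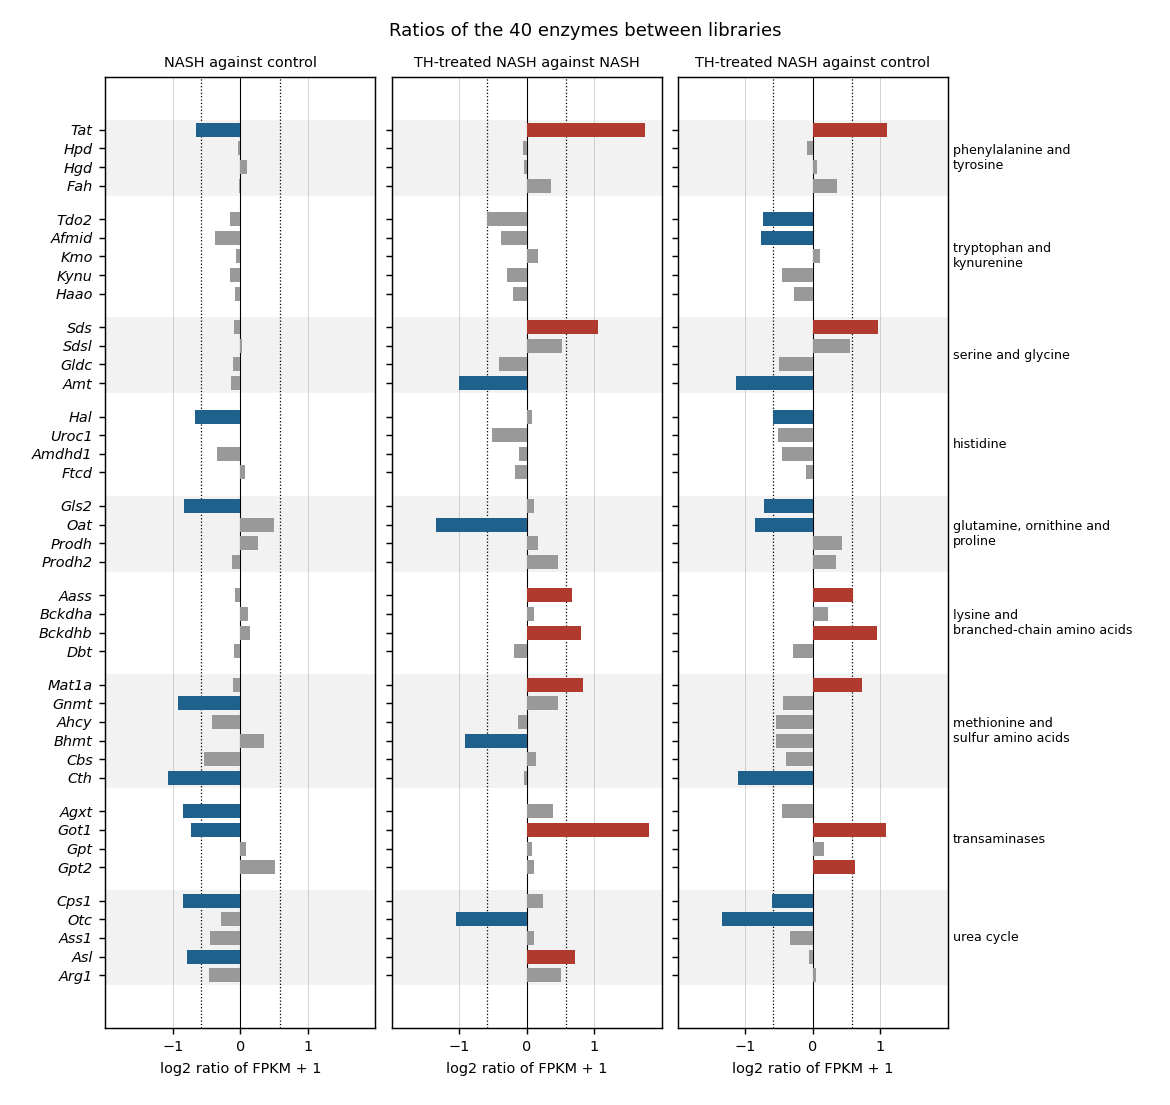
Log2 ratio of FPKM + 1 for each member in the 3 comparisons, with dotted lines at 1.5-fold, red bars past it on the higher side, blue bars past it on the lower side and grey bars between. NASH against control has 9 blue bars and no red bar, and TH-treated NASH against NASH has 7 red and 4 blue bars.

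Against control, TH-treated NASH had 7 members at least 1.5-fold higher and 9 lower. Of all 11474 genes 15.8% were higher and 6.98% lower, and of 1427 genes of at least 50 FPKM 22.8% were higher and 13.0% lower, beside 7 and 6 of 34 members at that level. Higher were Tat, Got1, Sds, Bckdhb, Mat1a, Gpt2 and Aass, and lower were Otc, Amt, Cth, Oat, Afmid, Tdo2, Gls2, Cps1 and Hal. The members' median was −0.28. With median-of-ratios or TMM scaling 4 members were higher and 17 lower, and Mat1a, Gpt2 and Aass then lay below 1.5-fold. Over all genes, 1817 were higher and 801 lower as deposited. These counts were 1270 and 1260 with median-of-ratios scaling and 1236 and 1295 with TMM scaling. The 3 comparisons share libraries, so each is given by its own values.

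**Figure D3:**
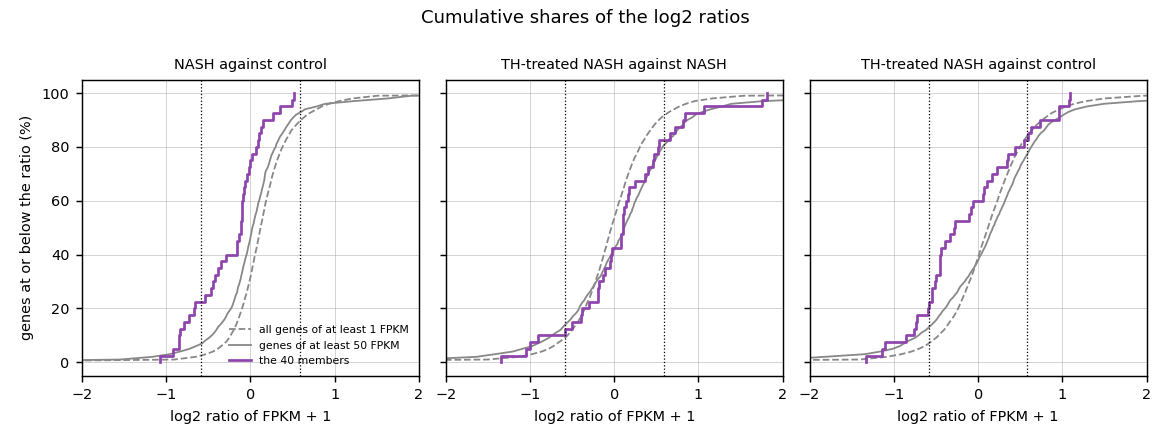
Cumulative share of genes by log2 ratio of FPKM + 1 in each comparison, for the 40 members (purple), all genes that reach 1 FPKM (dashed grey) and genes of at least 50 FPKM (solid grey), with dotted lines at 1.5-fold. In NASH against control the members' curve lies left of both grey curves over most of its range, with a median of −0.11 beside 0.12 for all genes and 0.02 for genes of at least 50 FPKM.

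Each of the 5 urea cycle enzymes had a lower level in NASH than in control, with Cps1 and Asl past 1.5-fold and a median log2 ratio of −0.46. Cps1, the carbamoyl phosphate synthetase that starts the cycle, stood at 471 FPKM (control), 261 FPKM (NASH) and 311 FPKM (TH-treated NASH). It was highest in control, and in NASH 1.81-fold lower (1.79 to 1.82). Asl, argininosuccinate lyase, stood at 224 FPKM (control), 129 FPKM (NASH) and 214 FPKM (TH-treated NASH). Its NASH level was 1.73-fold lower (1.70 to 1.77) than in control, and its TH-treated NASH level 1.66-fold higher (1.62 to 1.69) than in NASH and within 1.04-fold of control. Ass1 was 1.36-fold lower in NASH than in control. Arg1, the arginase that releases urea, stood at 864 FPKM (control), 626 FPKM (NASH) and 897 FPKM (TH-treated NASH) and was 1.38-fold lower in NASH. With TMM scaling, with median-of-ratios scaling and with length centring, Ass1 and Arg1 also passed 1.5-fold, making 4 of 5.

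Otc, the mitochondrial ornithine transcarbamylase, had a lower level in TH-treated NASH than in NASH, unlike the other 4 enzymes of the cycle. Its levels were 156 FPKM (control), 128 FPKM (NASH) and 61.2 FPKM (TH-treated NASH). It was 2.09-fold lower (2.03 to 2.14) in TH-treated NASH than in NASH, while Cps1, Ass1, Asl and Arg1 were each higher there, between 1.08-fold and 1.66-fold. Summed over the 5 enzymes, the cycle held 3429 FPKM (control), 2400.05 FPKM (NASH) and 2845 FPKM (TH-treated NASH), and Ass1 made up 49.99% of the control sum. Among partners of the cycle, Slc25a15, the ornithine carrier of mitochondria, was 1.68-fold higher (1.64 to 1.72) in TH-treated NASH than in NASH at 81.5, 71.6 and 119.95 FPKM in control, NASH and TH-treated NASH. Car5a, the mitochondrial carbonic anhydrase that supplies bicarbonate to Cps1, was 1.89-fold lower (1.79 to 2.003). Nags, which makes the activator of Cps1, was 1.29-fold lower in NASH than in control and 1.62-fold lower in TH-treated NASH than in control.

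**Figure D4:**
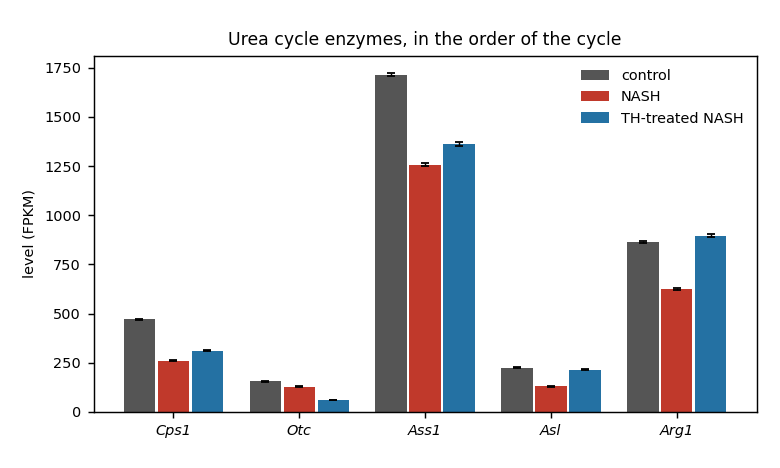
Levels of the 5 urea cycle enzymes in FPKM, in the order of the cycle, with 1 bar per library and error bars for the exact 95% Poisson counting interval of that library. All 5 are lower in NASH than in control, and Otc is lowest in TH-treated NASH at 61.2 FPKM.

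Among the 4 transaminases, which pass amino groups between amino acids and keto acids, Agxt and Got1 were lower in NASH and none was higher. Got1, the cytosolic aspartate aminotransferase, stood at 104 FPKM (control), 62.2 FPKM (NASH) and 220.2 FPKM (TH-treated NASH). It was lowest in NASH, 1.67-fold lower (1.62 to 1.72) than in control, and highest in TH-treated NASH, 3.54-fold higher (3.44 to 3.65) than in NASH. No other member had so large a ratio in that comparison. Agxt, which detoxifies glyoxylate to glycine, stood at 151 FPKM (control), 83.3 FPKM (NASH) and 110.1 FPKM (TH-treated NASH), and was 1.81-fold lower (1.76 to 1.87) in NASH than in control. The alanine aminotransferases Gpt and Gpt2, which link alanine to pyruvate, were higher in NASH than in control by less than 1.5-fold. Gpt stood at 149, 159 and 167 FPKM in control, NASH and TH-treated NASH. Gpt2, the mitochondrial form, stood at 111, 159 and 171 FPKM and was 1.55-fold higher in TH-treated NASH than in control.

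In glutamine, ornithine and proline breakdown, Gls2 was lower in NASH and Oat lower in TH-treated NASH. Gls2, the liver glutaminase that frees ammonia from glutamine, stood at 133 FPKM (control), 74.1 FPKM (NASH) and 79.9 FPKM (TH-treated NASH). Control lay above both diet libraries, and NASH was 1.79-fold lower (1.75 to 1.84). Oat, the ornithine aminotransferase, stood at 275 FPKM (control), 387 FPKM (NASH) and 152 FPKM (TH-treated NASH). It was highest in NASH and lowest in TH-treated NASH, 2.55-fold lower (2.50 to 2.60) than in NASH. Prodh, proline dehydrogenase, and Prodh2, which acts on hydroxyproline, stayed within 1.38-fold in both comparisons with NASH, at 73.5, 88.5 and 100.1 FPKM and at 114, 105 and 145 FPKM in control, NASH and TH-treated NASH. Outside the members, Glul, which makes glutamine in pericentral hepatocytes, was 1.99-fold higher (1.97 to 2.01) in NASH than in control at 359.7, 716 and 663 FPKM in the 3 libraries. Aldh18a1, which makes the precursor of proline and ornithine, was low at 0.348, 1.09 and 1.32 FPKM, with control lowest. Beside Oat and Glul, 3 of 8 pericentral markers were at least 1.5-fold higher in NASH (Glul among them) and none lower, and of 8 periportal markers outside the members 1 was higher and 1 lower. With TMM scaling, median-of-ratios scaling or length centring 2 pericentral markers were higher and 1 lower, and 2 periportal markers were lower and none higher. In TH-treated NASH against NASH, where Oat was lower, the pericentral markers Cyp2e1, Cyp1a2 and Axin2 were lower and none of the 8 higher, while 3 periportal markers were higher and 4 lower. Their part in these results was not tested. Hoga1, an enzyme of hydroxyproline breakdown, was 1.63-fold lower (1.55 to 1.72) in TH-treated NASH than in NASH.

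In tyrosine breakdown the opening enzyme stood apart from the rest of its chain. Tat, tyrosine aminotransferase, stood at 417 FPKM (control), 264 FPKM (NASH) and 894 FPKM (TH-treated NASH). NASH was lowest, 1.58-fold lower (1.56 to 1.60) than control, and TH-treated NASH highest, 3.39-fold higher (3.34 to 3.43) than NASH. The next enzymes hardly differed. Hpd, which makes homogentisate, stood at 1125, 1095 and 1058 FPKM in control, NASH and TH-treated NASH. Hgd, which opens the ring of homogentisate, stood at 299, 321 and 313 FPKM. Fah, the last enzyme of the chain, stood at 358, 354 and 457 FPKM and was 1.29-fold higher in TH-treated NASH than in NASH, below the 1.5-fold threshold. None of the 4 other genes listed for the pathway passed 1.5-fold in any comparison.

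No tryptophan member passed 1.5-fold in NASH against control or in TH-treated NASH against NASH. Tdo2, tryptophan dioxygenase, stood at 387 FPKM (control), 347 FPKM (NASH) and 231 FPKM (TH-treated NASH) and lay just under the threshold in the second of these, 1.4997-fold lower (1.48 to 1.52) with a log2 ratio of −0.58. Its ratio was past 1.5-fold there with TMM scaling or scaling to equal FPKM totals. Against control, TH-treated NASH had Tdo2 1.67-fold lower (1.65 to 1.70) and Afmid 1.85-fold lower (1.65 to 2.08). Tk1, which overlaps Afmid on the other strand, stood at 10.4, 7.20 and 8.75 FPKM in control, NASH and TH-treated NASH. Each of these levels was above that of Afmid itself. Kmo, the kynurenine hydroxylase of the outer mitochondrial membrane, stood at 87.5, 84 and 94.4 FPKM in the 3 libraries. Kynu, the kynureninase, stood at 55.7, 49.8 and 40.4 FPKM, and Haao, which makes the precursor of quinolinate, at 403, 381 and 332 FPKM. Enzymes at the branch after Haao differed more. Acmsd, which diverts carbon away from NAD synthesis, stood at 11.5 FPKM (control), 4.46 FPKM (NASH) and 10.2 FPKM (TH-treated NASH), 2.57-fold lower (2.34 to 2.84) in NASH than in control and 2.29-fold higher (2.07 to 2.54) in TH-treated NASH than in NASH. Qprt, which commits quinolinate to NAD, was 1.75-fold lower (1.69 to 1.81) in TH-treated NASH than in NASH. Kyat1, listed as Ccbl1, one of the kynurenine aminotransferases, stood at 69.3 FPKM (control), 43.1 FPKM (NASH) and 96.2 FPKM (TH-treated NASH).

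No serine or glycine member passed 1.5-fold in NASH against control, and in TH-treated NASH against NASH 1 was higher and 1 lower. Sds, the serine dehydratase that turns serine into pyruvate, stood at 176 FPKM (control), 164 FPKM (NASH) and 343 FPKM (TH-treated NASH). Control and NASH were within 1.07-fold, and TH-treated NASH was 2.10-fold higher (2.04 to 2.15) than NASH. An antisense gene that overlaps Sds, Gm15690, stood at 16.3, 14.4 and 36.0 FPKM in the same order, and the sources used here do not give the strand setting of the counting, so reads of the pair may not be separable. Sdsl, a close relative of Sds with a far lower level, stood at 8.57, 8.69 and 13 FPKM, and was 1.49-fold higher in TH-treated NASH than in NASH. Amt, a subunit of the mitochondrial glycine cleavage system, stood at 25.7 FPKM (control), 23.2 FPKM (NASH) and 11.1 FPKM (TH-treated NASH), 2.09-fold lower (1.90 to 2.30) in TH-treated NASH than in NASH. Gldc, the decarboxylase of the same complex, stood at 27.3, 25.4 and 19 FPKM and did not pass 1.5-fold. Of 12 other genes of serine, glycine and glyoxylate metabolism kept, 2 were lower and none higher in TH-treated NASH against NASH, and 2 to 5 were lower under the 4 scalings. In that comparison 9.03% of all genes and 13.9% of genes of at least 50 FPKM were lower as deposited. The 2 lower genes as deposited are a share near that of abundant genes. The 2 were Dmgdh, a mitochondrial dehydrogenase that makes sarcosine from dimethylglycine, 1.82-fold lower (1.77 to 1.87), and Agxt2, a mitochondrial aminotransferase, 1.89-fold lower (1.82 to 1.97). In NASH against control only Gcat of these 12, an enzyme of threonine breakdown, passed the threshold, at 1.76-fold lower (1.68 to 1.84).

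Of the 4 histidine enzymes, Hal was lower in NASH and none of the 4 passed 1.5-fold between TH-treated NASH and NASH as deposited. Hal, the histidine ammonia-lyase that opens the pathway, stood at 48.2 FPKM (control), 29.9 FPKM (NASH) and 31.7 FPKM (TH-treated NASH). Control lay above both diet libraries, and NASH was 1.61-fold lower (1.57 to 1.66). Uroc1, urocanate hydratase, stood at 103, 103 and 72 FPKM, with TH-treated NASH lowest, and passed 1.5-fold against NASH with scaling to equal FPKM totals, at a log2 ratio of −0.61. Amdhd1, which acts next, stood at 75.8, 59.6 and 55.3 FPKM, and Ftcd, which passes the last carbon to folate, at 149, 157 and 139 FPKM.

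In lysine and branched-chain breakdown none of the 4 members passed 1.5-fold in NASH, and 2 were higher in TH-treated NASH. Aass, which starts lysine breakdown in mitochondria, stood at 69.1 FPKM (control), 65.4 FPKM (NASH) and 105 FPKM (TH-treated NASH) and was 1.60-fold higher (1.56 to 1.64) in TH-treated NASH than in NASH. The branched-chain keto acid dehydrogenase joins the subunits Bckdha, Bckdhb and Dbt, and its members differed unequally. Bckdhb stood at 46.6 FPKM (control), 51.6 FPKM (NASH) and 91.4 FPKM (TH-treated NASH), 1.77-fold higher (1.70 to 1.85) in TH-treated NASH than in NASH. Bckdha stood at 155, 169 and 182 FPKM and Dbt, the transacylase core, at 24.1, 22.4 and 19.5 FPKM, neither past 1.5-fold. Bckdk, the kinase that inactivates the complex, was 1.88-fold higher (1.70 to 2.07) in TH-treated NASH than in control.

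Some enzymes further down these chains were lower in TH-treated NASH. Of 17 other branched-chain genes kept, 6 were at least 1.5-fold lower than in NASH and none higher, with a median log2 ratio of −0.44, where 9.03% of all genes and 13.9% of genes of at least 50 FPKM were lower. The count was 6 under each of the 4 scalings tried. They included Aldh6a1, the methylmalonate semialdehyde dehydrogenase of valine breakdown, at 110.1 FPKM (control), 118 FPKM (NASH) and 59.7 FPKM (TH-treated NASH), 1.98-fold lower (1.93 to 2.04) than in NASH. Mmut, the methylmalonyl-CoA mutase listed as Mut, was 1.98-fold lower (1.89 to 2.06). Hibadh, a dehydrogenase of the valine chain, was 1.91-fold lower (1.86 to 1.96), and Hsd17b10, which acts in the isoleucine chain, 1.78-fold lower (1.71 to 1.85). In NASH against control none of the 17 passed 1.5-fold as deposited. Among 5 other lysine genes, 2 were lower in TH-treated NASH than in NASH. Aldh7a1, a dehydrogenase of lysine breakdown, stood at 116 FPKM (control), 117 FPKM (NASH) and 45.9 FPKM (TH-treated NASH), 2.54-fold lower (2.48 to 2.61), and Dhtkd1, which acts on 2-oxoadipate, was 1.86-fold lower (1.74 to 1.996).

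Methionine and sulfur enzymes held the member with the lowest ratio in NASH. Cth, the cystathionine gamma-lyase that yields cysteine, stood at 192 FPKM (control), 90.4 FPKM (NASH) and 88.5 FPKM (TH-treated NASH). Control lay above both diet libraries, which were nearly equal, and NASH was 2.12-fold lower (2.07 to 2.18). Gnmt, which consumes S-adenosylmethionine to methylate glycine, stood at 1407 FPKM (control), 745 FPKM (NASH) and 1033 FPKM (TH-treated NASH), 1.89-fold lower (1.87 to 1.91) in NASH than in control. Cbs, which makes cystathionine, stood at 171, 117 and 129 FPKM in the 3 libraries, and Ahcy, which cleaves S-adenosylhomocysteine, at 684, 512 and 468 FPKM, both highest in control and neither past 1.5-fold as deposited. Under the 4 scalings, 2 to 4 of the 6 members were lower in NASH.

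Mat1a, the liver methionine adenosyltransferase, stood at 771 FPKM (control), 715 FPKM (NASH) and 1281 FPKM (TH-treated NASH), with TH-treated NASH 1.79-fold higher (1.78 to 1.81) than NASH. Bhmt, which remethylates homocysteine with betaine, stood at 623 FPKM (control), 799 FPKM (NASH) and 425 FPKM (TH-treated NASH). It was highest in NASH and lowest in TH-treated NASH, 1.88-fold lower (1.86 to 1.89) than in NASH. An antisense gene over Bhmt, Gm15622, stood at 30.4, 34.5 and 12.1 FPKM in the same order, and reads of the pair may not be separable. Of 14 other genes of the pathway, 1 was lower in NASH against control. It was Csad, the decarboxylase on the way from cysteine to taurine, at 262 FPKM (control), 70.3 FPKM (NASH) and 67.7 FPKM (TH-treated NASH), 3.72-fold lower (3.63 to 3.82), a larger ratio than that of any member. Cdo1, the cysteine dioxygenase just before it, stood at 755, 750.3 and 908 FPKM. In TH-treated NASH against NASH, 2 of the 14 were lower, Sqor (listed as Sqrdl), which oxidises sulfide, 1.89-fold lower (1.81 to 1.99), and Suox, sulfite oxidase, 1.80-fold lower (1.71 to 1.90). There 9.03% of all genes and 13.9% of genes of at least 50 FPKM were lower, so 2 of 14 is near the latter share.

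Of 13 amino acid transporters, 1 was higher and 1 lower in NASH against control. There 10.5% of all genes and 7.42% of genes of at least 50 FPKM were higher, and 2.57% and 6.98% lower. Slc38a2, a carrier of small neutral amino acids, stood at 30.5 FPKM (control), 15.3 FPKM (NASH) and 49.9 FPKM (TH-treated NASH), lowest in NASH and highest in TH-treated NASH. It was 1.99-fold lower (1.91 to 2.08) in NASH than in control and 3.27-fold higher (3.14 to 3.3998) in TH-treated NASH than in NASH. Slc7a8, a neutral amino acid exchanger, was 2.48-fold higher (2.13 to 2.88) in NASH than in control at 1.16 and 2.88 FPKM. In TH-treated NASH against NASH 3 transporters were higher and none lower, with Slc7a5, a carrier of large neutral amino acids, 2.73-fold higher (2.22 to 3.38) on few fragments and Slc6a12, a betaine carrier, 1.71-fold higher (1.62 to 1.80). In this comparison 8.49% of all genes and 19.5% of genes of at least 50 FPKM were higher, and 9.03% and 13.9% lower. The abundant system N and A carriers Slc38a3 and Slc38a4 stayed within 1.14-fold in both comparisons with NASH.

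Of 10 regulators of amino acid breakdown, none passed 1.5-fold in NASH against control as deposited, and in TH-treated NASH against NASH 3 were higher and 1 lower. In the latter, 8.49% of all genes and 19.5% of genes of at least 50 FPKM were higher, and 9.03% and 13.9% lower. Hnf4a, a master factor of hepatocytes that also stands among the hepatocyte markers, was 1.45-fold lower (1.42 to 1.47) in NASH than in control at 134, 92.6 and 114 FPKM in the 3 libraries, and passed 1.5-fold with TMM scaling, median-of-ratios scaling and length centring. Cebpb, a transcription factor that activates such genes in fasting, stood at 132 FPKM (control), 145 FPKM (NASH) and 273 FPKM (TH-treated NASH), 1.88-fold higher (1.83 to 1.93) than in NASH. Its relative Cebpa stood at 268 FPKM (control), 252 FPKM (NASH) and 162 FPKM (TH-treated NASH), 1.56-fold lower (1.53 to 1.59). Foxo1, a factor restrained by insulin, was 1.77-fold higher (1.67 to 1.87). Gcgr, the glucagon receptor, was 1.51-fold higher (1.48 to 1.54), but it lay below 1.5-fold when libraries were scaled to equal FPKM totals. Nr3c1, the glucocorticoid receptor, stood at 12.3, 12.1 and 9.90 FPKM in the 3 libraries, and Thrb, the main thyroid hormone receptor of liver, at 6.43, 6.69 and 4.64 FPKM.

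**Figure D5:**
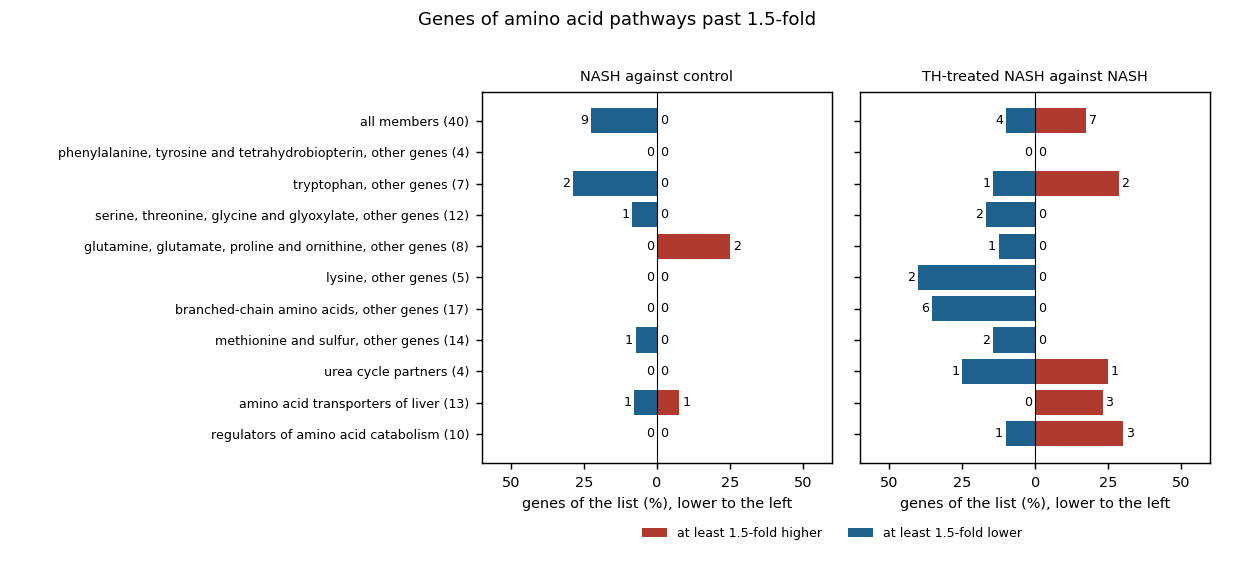
Share of genes at least 1.5-fold higher (red, to the right) or lower (blue, to the left) among the members and the 10 lists of other genes of the same pathways, with the number of genes beside each bar and the number kept in brackets, in 2 comparisons. The branched-chain list has 6 of 17 genes lower and none higher in TH-treated NASH against NASH, and the members have 9 of 40 lower and none higher in NASH against control.

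Over all 71 other enzymes and partners kept, 2 were higher and 4 lower in NASH against control, and 3 higher and 15 lower in TH-treated NASH against NASH. Of all genes 2.57% were lower in the former and 9.03% in the latter, and of genes of at least 50 FPKM 6.98% and 13.9%, so the 4 lower genes in NASH are a share near that of abundant genes. Higher were 10.5% and 8.49% of all genes, and 7.42% and 19.5% of genes of at least 50 FPKM. With scaling to equal FPKM totals 22 of the 71 were lower in the latter, and with median-of-ratios scaling 8 in the former. Over all genes, those lower then went from 1060 to 1418 in the latter and from 296 to 533 in the former. The medians of the 71 were 0.08 and −0.28, beside −0.11 and 0.11 for the members. The sign of the first of these turned with TMM scaling, with median-of-ratios scaling and with length centring. In TH-treated NASH against control 5 of the 71 were higher, where 15.8% of all genes and 22.8% of genes of at least 50 FPKM were higher. In the same comparison 23 of the 71 were lower, beside 6.98% of all genes and 13.0% of genes of at least 50 FPKM. Among those lower were the kynurenine aminotransferases Kyat3 (listed as Ccbl2), 1.90-fold lower (1.84 to 1.96), and Aadat, 1.64-fold lower (1.56 to 1.72). Peroxisomal and mitochondrial enzymes of glycine and glyoxylate were also among them, with Pipox 1.88-fold lower (1.82 to 1.94), Sardh 1.60-fold lower (1.58 to 1.63) and Hao1 1.65-fold lower (1.61 to 1.70). So were Acadsb of isoleucine breakdown, 1.86-fold lower (1.78 to 1.94), and Slc25a13, the aspartate and glutamate carrier that feeds Ass1, 1.58-fold lower (1.53 to 1.63). Among transporters, Slc7a2, an arginine carrier, was 1.58-fold lower (1.55 to 1.61). A further 5 listed genes stayed below 1 FPKM in every library, namely Tdh, Pycr1, Bcat1, Slc25a2 and Arg2.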

How the data were processed

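PolyA RNA of mouse liver was sequenced in 3 libraries. The labels' protocols describe oligo(dT) selection, random fragmentation and cDNA from random hexamers. The submitters' processing notes name TopHat2 and HTSeq, and the sources used here give no version, setting, strand mode or genome build. The authors deposited FPKM per gene beside gene length. FPKM multiplied by length came in whole multiples of 1 step per library, so fragments were recovered, with 100% of values above 0 whole within 0.01 fragment.

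Ratios of log2(FPKM + 1), which shrink the folds of low genes, were computed in Python 3.11.15 with pandas 2.3.3 and scipy 1.17.1. Background genes had at least 1 FPKM in either library of a pair, and list genes in any library. Folds of single genes carry exact 95% intervals for counting error only, and no spread between animals enters them. They take each fragment as independent, which PCR copies are not, so they may be too narrow even for that error. The steps were tested on simulated data. The members and lists were chosen with earlier results of these data known. Named were all members past 1.5-fold in any comparison, 12 members by role, and up to 4 genes per list with the largest ratios, some of which are not reported here. The AGGTCA core was added to the motifs after the others. Protein sequences were not used here. Alternatives were other pseudocounts, filters, scalings, thresholds and centring by gene length.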

Additional observations from a re-analysis of the deposited data

How the results depend on the processing

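With 1 library per group, neither replicates nor batches could be set against the groups, and depth limited little, since each member rested on at least 410 fragments. No paired analysis was possible because each group has 1 library. Of 36 member ratios past 1.5-fold over the 3 comparisons, among the 22 members named by rule, 29 stayed past it in the same direction under all 8 settings of pseudocount, filter, scaling and centring, and none changed sign. The 7 others were Aass against NASH and Aass, Mat1a, Gpt2, Cps1, Hal and Afmid of TH-treated NASH against control. Further ratios of the named members came past 1.5-fold under some settings. These were 2 with scaling to equal FPKM totals, 5 with median-of-ratios scaling, 6 with TMM scaling and 5 with centring by gene length.

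At 2-fold instead of 1.5-fold, 1 member was lower in NASH against control (Cth). At that threshold 3 were higher and 2 lower in TH-treated NASH against NASH, and 2 higher and 3 lower in TH-treated NASH against control. The members' median in NASH against control was −0.33 with median-of-ratios scaling, −0.29 with TMM scaling and −0.25 with centring by gene length. In TH-treated NASH against NASH it was −0.0019 with scaling to equal FPKM totals and 0.15 with median-of-ratios scaling. In TH-treated NASH against control it was −0.37 with equal totals, −0.46 with median-of-ratios, −0.47 with TMM, −0.48 with centring by gene length and −0.10 among genes of at least 50 FPKM. There, 4 members were higher and 17 lower with median-of-ratios scaling, 4 and 17 with TMM, and 14 lower with centring by gene length. The cause was not tested. Over all genes, 1208 were higher and 296 lower, 996 and 1060, and 1817 and 801 in the 3 comparisons as deposited. With median-of-ratios scaling these counts were 789 and 533, 1073 and 951, and 1270 and 1260, so the share on the higher side went from 80.3% to 59.7%, 48.4% to 53.0% and 69.4% to 50.2%. With TMM scaling the counts were 850 and 476, 945 and 1066, and 1236 and 1295. With equal totals they were 1286 and 282, 762 and 1418, and 1500 and 999, and with centring by gene length 840 and 430, 918 and 1040, and 1179 and 1137. With a pseudocount of 5 FPKM they were 367 and 159, 513 and 459, and 789 and 380.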

Other observations

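The pairs of related enzymes described here did not share 1 pattern. Beside cytosolic Got1, the mitochondrial aspartate aminotransferase Got2 stood at 238 FPKM (control), 258 FPKM (NASH) and 191 FPKM (TH-treated NASH), within 1.08-fold of control in NASH, and 1.35-fold lower (1.32 to 1.37) in TH-treated NASH than in NASH. Arg2, the mitochondrial arginase, rested on 11 to 26 fragments per library, at 0.141, 0.194 and 0.475 FPKM in control, NASH and TH-treated NASH. Bhmt2, a neighbour and relative of Bhmt, stood at 64.6 FPKM (control), 75.7 FPKM (NASH) and 84.6 FPKM (TH-treated NASH) and passed 1.5-fold in no comparison. Mat2a, the methionine adenosyltransferase found in most tissues, stood at 29.5, 33.6 and 43.7 FPKM beside Mat1a at 771, 715 and 1281 FPKM. Each pair was listed for its relation in sequence or reaction, and no difference within a pair was tested.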
